A study of Capra hircus with 20 samples.

Results

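The libraries described here came from goat (Capra hircus) cells labelled as preadipocytes, the fibroblast-like precursors of fat cells. The cells were cultured from 2 depots and sampled before any adipogenic agent was given. The libraries are the 5 labelled as intramuscular preadipocytes (IMPA1 to IMPA5) and the 5 labelled as subcutaneous preadipocytes (SPA1 to SPA5), chosen by their group labels. They make up 10 of the 20 libraries of the series. The other 10 hold cells of the same depots after induction with oleic acid, labelled as intramuscular adipocytes (IMA, n = 5) and subcutaneous adipocytes (SA, n = 5). Per the study's methods, the cells were released with collagenase from the longissimus dorsi muscle and the subcutaneous fat of 7-day-old male Jianzhou Daer goats and used at the third passage in DMEM/F12 with 10% foetal bovine serum. Neither the labels nor the methods tie a replicate number to a goat, so the libraries were compared without pairing. The question addressed was which genes set the IMPA and SPA libraries apart before induction, beyond the genes of muscle cells.

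RNA abundance was deposited as FPKM, a measure scaled to transcript length and to the mapped fragments of each library, for mRNA transcripts, annotated long noncoding RNAs (lncRNAs) and newly assembled lncRNAs. These values do not carry the number of reads behind them, and the read totals listed by the study were not used to weigh them. FPKM summed to between 561050 and 576828 in the IMPA libraries and to between 544185 and 576235 in the SPA libraries (two-sided exact permutation test, p = 0.0397). The p rose to between 0.0635 and 0.0873 when IMPA1, IMPA3, IMPA5, SPA2, SPA3, SPA4 or SPA5 was left out. Between 26739 and 28153 features lay above 0 in the IMPA libraries and between 24475 and 25501 in the SPA libraries, without overlap (exact permutation p = 0.00794, the smallest that 5 against 5 libraries can give). Per the study's read statistics, each IMPA library also had more mapped reads than any SPA library. More features can rise above 0 with more mapped reads, and the part of depth in this difference was not tested. The most abundant feature in both depots was the unnamed newly assembled lncRNA LNC_010228, with 26.5% to 28.0% of the summed FPKM in IMPA and 25.9% to 29.1% in SPA (exact permutation p = 0.738). Without SPA1, the mean share of LNC_010228 was 0.21 percentage points higher in IMPA (exact permutation p = 0.667).

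The read statistics of the study divide the libraries in a way that nearly follows the depots. All 5 IMPA libraries and SPA1 lost few reads in quality filtering, and SPA2 to SPA5 lost more. The mapped share and the GC content of the reads were both higher in each IMPA library than in any SPA library. Mapped share, GC content and depot therefore cannot be told apart here. For the read-filter batch, the 5 IMPA libraries were also set beside SPA1 alone, and for some genes below the difference from SPA1 is given too.

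Preadipocytes belong to the PDGFRA-positive stromal cells of connective tissue, which lay down collagens and small proteoglycans and become fat cells under the control of CEBP factors and PPARG. Cells of this kind keep a memory of their place in the body, carried in large part by homeobox (HOX), T-box and other patterning factors that stay expressed in culture. Muscle also holds satellite cells, the stem cells of muscle fibres, which express PAX7 and MYF5 and form fibres under MYOD1 and MYOG.

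Both groups held the fibrillar collagens COL1A1, COL1A2 and COL3A1, while the intramuscular libraries also carried a large muscle program. COL3A1, the most abundant of the listed stromal genes in IMPA and second to DCN in SPA, lay at 4494, 5528, 3850, 4932 and 3417 FPKM in IMPA1 to IMPA5 and at 4135, 4443, 4368, 4308 and 4259 FPKM in SPA1 to SPA5. The ranges overlapped, and COL3A1 did not pass the test (log2 difference 0.026, adjusted p = 0.838), as was the case for COL1A1 (adjusted p = 0.31) and COL1A2 (adjusted p = 0.0747). Without SPA1, COL1A2 was called lower in IMPA (adjusted p = 0.000412), and with quantile normalization COL3A1 was called higher (0.00149). MYOG, the factor that drives myoblasts into fibres, lay at 613, 582, 716, 608 and 727 FPKM in IMPA1 to IMPA5 and at 0.619, 0, 0, 0 and 0 FPKM in SPA1 to SPA5. MYOG was thus high in each IMPA library, and among the SPA libraries SPA1 alone was above 0. MYOD1 averaged 43.2 ± 1.84 FPKM (mean ± SD, n = 5, as for the means below) in IMPA and was listed at 0 in all 5 SPA libraries. The satellite cell factor PAX7 averaged 12.2 ± 2.12 FPKM in IMPA against 0.012 ± 0.0185 FPKM in SPA, and MYF5 20 ± 4.25 against 0.296 ± 0.13 FPKM.

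Of 180 listed skeletal muscle genes, 130 passed the filter on low values. Of these, 124 were higher in IMPA and 4 lower, beside 41.7% higher and 31.1% lower of all features tested. The filter used the mean over both depots, so a gene nearly absent from SPA could pass only through high IMPA values. The direction of such genes was set by passing, and their number was not counted. This limit also holds for genes nearly absent from either depot in the lists below and among all features. The muscle list summed to 10324, 10298, 11749, 10915 and 11887 FPKM in IMPA1 to IMPA5, or 1.81% to 2.06% of each library's FPKM, and to 501, 462, 452, 467 and 467 FPKM in SPA1 to SPA5. The cardiac-type actin ACTC1, used in developing muscle, was the most abundant member at 1444 ± 151 FPKM in IMPA, followed by the myosin light chains MYLPF at 1061 ± 47.3 and MYL2 at 1050 ± 59 FPKM. SPA1 held more of these transcripts than SPA2 to SPA5: MYL2 lay at 7.97, 0, 0, 0 and 0.0843 FPKM and ACTC1 at 3.37, 0.0356, 0.0809, 0.0722 and 0.0868 FPKM in SPA1 to SPA5. SPA1 is also the subcutaneous library that shared the read-filter batch of the IMPA libraries. The muscle genes thus go against a pure preadipocyte identity of the IMPA libraries, and the text below calls the groups by their labels only. In bulk RNA, more cells of a type and more RNA per cell of that type cannot be told apart, and the part of muscle cells in each result below was not tested.

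Defining markers of other cell types were below 1 FPKM in both groups for the most part, while CD14, CDH1, S100B, MBP and some others were not. The adipocyte genes ADIPOQ (0.197 against 0.419 FPKM, mean of IMPA against mean of SPA), PLIN1 (0.258 against 0.128), LEP (0.154 against 0.0143) and PPARG (0.475 against 0.624) stayed below 1 FPKM. Of 18 endothelial genes, 2 passed the filter, 1 higher and 1 lower in IMPA, beside 41.7% and 31.1% of all features, and the defining genes PECAM1, CDH5, KDR and VWF averaged below 0.5 FPKM in both groups, with list sums of 11.2 to 12.9 FPKM in IMPA and 8.1 to 9.7 FPKM in SPA and ERG as the most abundant in IMPA and EGFL7 in SPA. Of 20 leukocyte genes, 2 passed, CD14 and CD68, both lower in IMPA, beside 31.1% of all features. The leukocyte list summed to between 5.9 and 9.5 FPKM in IMPA and between 17.9 and 19.9 FPKM in SPA, CD14 was its most abundant gene, and the defining genes PTPRC and CSF1R averaged below 0.04 FPKM in both groups. Of 14 Schwann cell and neural genes, 5 passed, 3 higher and 1 lower, beside 41.7% and 31.1% of all features (2 lower with median-of-ratios, upper-quartile and quantile scaling or no variance trend), with SOX10 averaging below 0.04 FPKM and the calcium-binding protein gene S100B the most abundant (30.9 against 43.2 FPKM), followed by the myelin protein gene MBP (21.6 against 6.75 FPKM). The Schwann list summed to between 65.6 and 74.9 FPKM in IMPA and between 55.4 and 58.2 FPKM in SPA. Of 13 epithelial genes, 2 passed, 1 of them higher, beside 41.7% of all features, and CDH1, the E-cadherin gene, averaged 20.3 ± 2.28 FPKM in IMPA against 0.015 ± 0.024 FPKM in SPA while EPCAM stayed at 0.0567 and 0.00345 FPKM. CDH1 made up most of the epithelial list sum in IMPA, which was 24.2 to 28.5 FPKM, beside 3.5 to 4.3 FPKM in SPA.

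**Figure D1:**
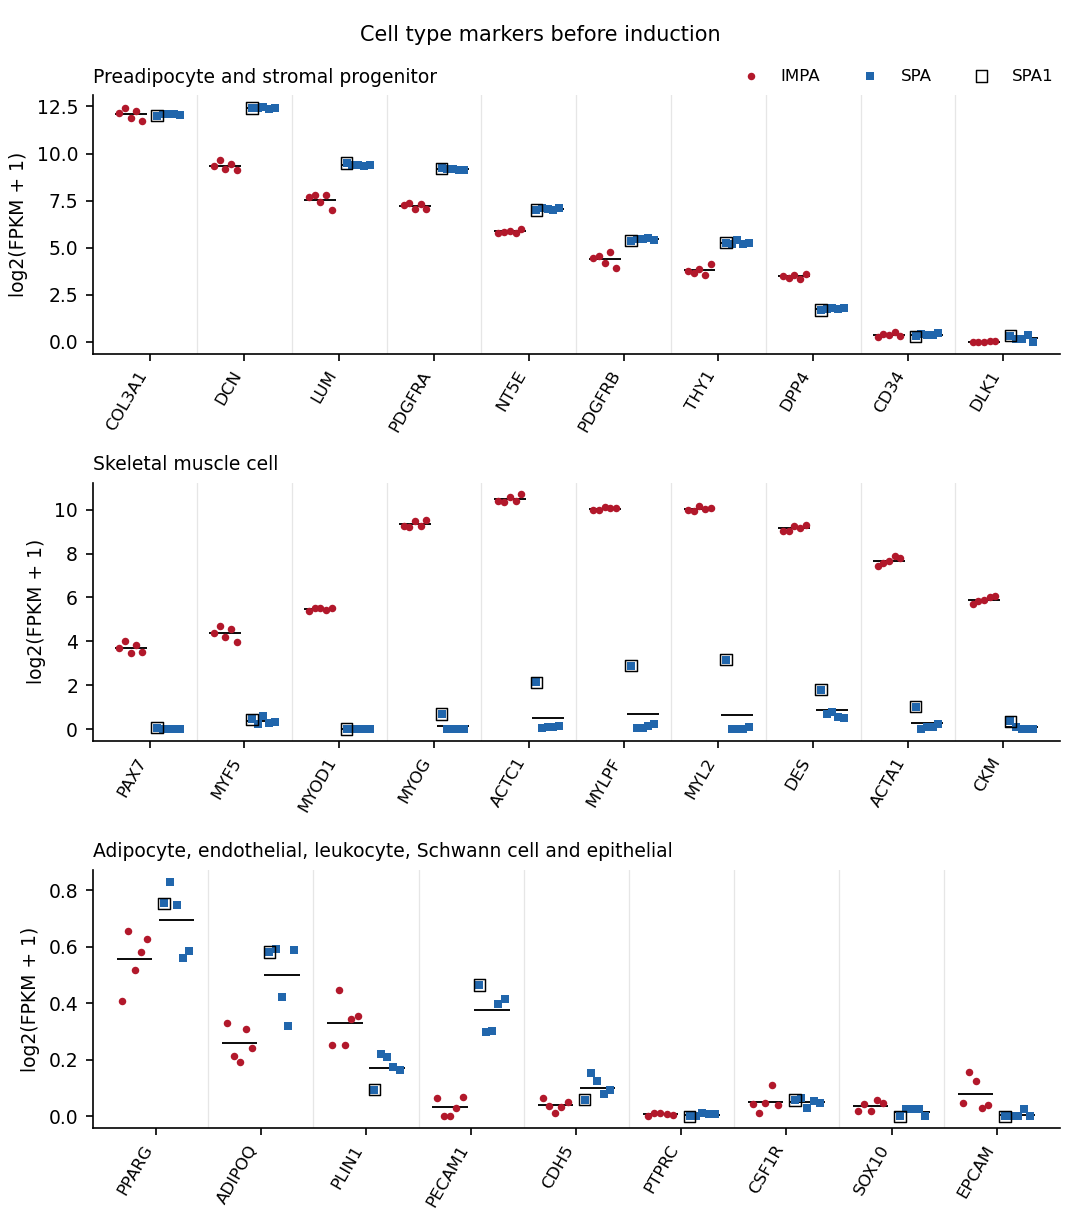
Levels of cell type markers as log2(FPKM + 1) on the vertical axis, 1 point per library, with the group mean as a line and SPA1 boxed; panels differ in scale. COL3A1 overlaps between the depots, and the muscle genes are high in the 5 IMPA libraries, with SPA1 above the other SPA libraries for most of them. The markers drawn in the bottom panel stay below 1 FPKM. CD14, CDH1, S100B, CEBPA and CIDEC are not drawn and average above 1 FPKM in at least 1 depot.

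The 2 depots differed at most of the features tested. With features averaging under 1 FPKM in the 10 libraries set aside, 13034 of 34199 features were tested together, namely 11368 mRNA genes, 467 annotated lncRNAs and 1199 new lncRNAs. At an adjusted p below 0.05, called from here on, 9494 features (72.8%) differed, 5435 higher in IMPA (41.7%) and 4059 lower (31.1%). With a log2 difference of at least 1 in size, a change of at least about 2-fold, 1072 features were higher (8.22%) and 737 lower (5.65%). The libraries of the groups did not overlap for 7880 features (60.5%), and the median SD within a group was 0.091 in IMPA and 0.082 in SPA on the log2 scale. The median log2 difference over all tested features was 0.067. It was 0.0121 with median-of-ratios scaling, 0.0285 with upper-quartile scaling and -0.0307 with quantile normalization. Outside the muscle list, 837 mRNA genes were at least 2-fold higher in IMPA and 661 at least 2-fold lower, so that muscle genes made up 118 of the 955 mRNA genes in the first set (8.4% of the mRNA genes tested) and 1 of the 662 in the second (5.82%).

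The same features were set beside SPA1, the subcutaneous library in the read-filter batch of IMPA, as values without a test. SPA1 is also 1 of the 5 SPA libraries by which the features were called. Of the 1072 features higher by at least 2-fold, 999 were also at least 2-fold higher in the IMPA libraries than in SPA1 alone, and 3 lay the other way; of the 737 lower features, 681 were at least 2-fold lower and 1 lay the other way. With quantile normalization the split turned to 4407 higher and 5090 lower, from 5435 and 4059. With a covariate for library size built as in Ballgown, which ran from 25544 to 25727 in IMPA and from 24368 to 24581 in SPA and so nearly matched the depots, 362 features were called, 226 higher and 136 lower, of which 355 were among the 9494 and 353 had the same direction. Of the 48 counts called higher or lower in the 24 gene lists below, 42 changed by more than 1.5 times with this covariate, and outside the muscle list no list kept more than 3 calls in a direction. Of the 176 genes and lncRNAs named here that were called, 45 kept their call with that covariate, all 45 in the same direction, among them MMP1, IGFBP2, TBX15, PRRX1, CDKN1C, COL4A1 and LOC108634721. DCN (adjusted p = 0.0829), PDGFRA (0.0922), GREM1 (0.371), HOXA10 (0.247) and RRM2 (0.142) did not.

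Outside the muscle list, and among genes that bear a proper symbol in place of a LOC number, the largest negative differences included an enzyme, a decoy receptor and a matrix protein of connective tissue. MMP1, the interstitial collagenase, lay at 0.311, 0.418, 0.289, 0.456 and 0.219 FPKM in IMPA1 to IMPA5 and at 115, 102, 97.7, 99.1 and 97.5 FPKM in SPA1 to SPA5. No IMPA library reached 1 FPKM, and the lowest SPA library was far above them (log2 difference -6.27 ± 0.061 SE, adjusted p = 8.66e-15; against SPA1 alone -6.44). ACKR4, an atypical receptor that removes chemokines, averaged 0.243 ± 0.0498 FPKM in IMPA and 42.9 ± 1.72 FPKM in SPA. TNFRSF11B, the decoy receptor osteoprotegerin, averaged 0.46 ± 0.143 against 45.5 ± 2.33 FPKM. PMCH, the precursor of melanin-concentrating hormone, averaged 1.23 ± 0.232 against 54.4 ± 4.79 FPKM, and AHR, the aryl hydrocarbon receptor, 0.658 ± 0.094 against 27.5 ± 0.678 FPKM. ASPN, a small leucine-rich proteoglycan, was 17.4-fold lower in IMPA, at 9.25 ± 2.7 FPKM against 161 ± 8.17 FPKM in SPA. The WNT-binding inhibitor WIF1 was 17.9-fold lower in IMPA (3.27 against 58.4 FPKM). PLAC8 (0.358 against 16.7 FPKM), the secreted C1QTNF1 (5.49 against 79.1 FPKM) and C27H8orf4 (9.79 against 123 FPKM) completed the 10 largest. The largest adjusted p among these 10 genes was 2.9e-10, for ASPN.

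The 10 largest positive differences outside the list, again among genes with a proper symbol, held several genes that are also known from muscle cells. IGFBP2, a secreted binder of insulin-like growth factors, lay at 1826, 1896, 1985, 1860 and 2102 FPKM in IMPA1 to IMPA5 and at 41.1, 35.5, 33.9, 35.6 and 38.6 FPKM in SPA1 to SPA5. It was 52.4-fold higher in the IMPA libraries, which did not overlap with SPA (log2 difference 5.67 ± 0.056 SE, adjusted p = 8.74e-15; against SPA1 alone 5.52). HSPB8, a small heat shock protein of muscle, averaged 121 ± 15.3 FPKM in IMPA and 0.117 ± 0.224 FPKM in SPA. CKB, the brain-type creatine kinase, averaged 127 ± 12.9 against 0.378 ± 0.0877 FPKM. The adhesion molecule NCAM1, carried by myoblasts and by nerve cells, averaged 47.4 ± 3.87 against 0.0174 ± 0.0152 FPKM, and ITGA4, the integrin alpha-4 subunit, 45.9 ± 3.11 against 0.254 ± 0.0461 FPKM. HES6, a HES family factor that promotes muscle differentiation, stood at 46.7 against 0.0386 FPKM and NMRK2, a nicotinamide riboside kinase of muscle, at 34.5 against 0.0135 FPKM. AIF1L (54.7 against 0.29 FPKM), the secreted protease ADAMTS1 (43.9 against 0.585 FPKM) and the AMP deaminase AMPD3 (28.1 against 0.0249 FPKM) completed the 10. The largest adjusted p among them was 9e-13, for HSPB8.

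HOX genes, which mark position along the body axis, were expressed at low levels. Of 39 listed HOX genes, 37 were in the files and 12 passed the filter; 6 of the 12 were called higher in IMPA, 2 lower, and 4 were not called, beside 41.7% higher and 31.1% lower of all features tested, with a median log2 difference of 0.21. HOXA10 lay at 1.85, 1.74, 1.78, 1.82 and 2.15 FPKM in IMPA1 to IMPA5 and at 0.206, 0.349, 0.366, 0.315 and 0.484 FPKM in SPA1 to SPA5 (log2 difference 1.10, adjusted p = 4.52e-08; against SPA1 alone 1.25). HOXA9 (2.2 ± 0.184 against 0.491 ± 0.0511 FPKM) and HOXD9 (3.87 ± 0.603 against 1.33 ± 0.133 FPKM) also differed by a log2 value above 1 without overlap, and HOXA7 and HOXB7 by 0.51 and 0.63. With quantile normalization, the log2 differences of HOXA9, HOXA10 and HOXD9 lay below 1, and 5 HOX genes were called higher and 3 lower. In the C cluster, HOXC6 fell from 11.2 ± 0.629 FPKM in SPA to 6.93 ± 0.596 FPKM in IMPA and HOXC8 from 8.59 ± 0.785 to 4.49 ± 0.503 FPKM, both without overlap. HOXC4 was higher in IMPA with overlap (0.37, adjusted p = 0.00538; 0.0831 with quantile normalization). HOXD8, the most abundant HOX gene in IMPA, at 9.42 ± 0.619 FPKM in IMPA and 9.16 ± 0.399 FPKM in SPA, was not called (adjusted p = 0.524), nor were HOXA5 (0.816), HOXC5 (0.327) and HOXC9 (0.295). HOXC10, below the filter and chosen after its values were seen, averaged 0.934 ± 0.16 FPKM in IMPA and 0.198 ± 0.108 FPKM in SPA.

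T-box genes were lower in IMPA or not called. TBX15, a factor of mesoderm and of some fat depots, lay at 12.8, 13.4, 13.2, 12.3 and 13.8 FPKM in IMPA1 to IMPA5 and at 59.6, 62, 64.7, 66.7 and 64.1 FPKM in SPA1 to SPA5. It was 4.84-fold lower in the IMPA libraries, without overlap (log2 difference -2.19 ± 0.04 SE, adjusted p = 9e-13; against SPA1 alone -2.10). TBX3 fell from 7.78 ± 0.419 FPKM in SPA to 0.94 ± 0.184 FPKM in IMPA and TBX2 from 14.6 ± 0.695 to 8.51 ± 1.62 FPKM, whereas TBX18 was not called (3.94 ± 0.162 FPKM in IMPA and 4.02 ± 0.22 FPKM in SPA, adjusted p = 0.674). So 3 of the 4 T-box genes tested, of 11 listed, were lower, beside 31.1% of all features, with a median log2 difference of -1.45. TBX5, below the filter and chosen after its values were seen, averaged 0.00702 FPKM in IMPA and 0.452 FPKM in SPA.

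Among 84 other patterning factors, 41 were tested, of which 15 were higher and 20 lower in IMPA, beside 41.7% and 31.1% of all features (12 and 13 by at least 2-fold; median -0.18). PRRX1, a homeobox factor of limb and body wall mesenchyme and the most abundant of the list in SPA, lay at 54.2, 57.3, 51.8, 54.2 and 56.1 FPKM in IMPA1 to IMPA5 and at 257, 258, 267, 276 and 267 FPKM in SPA1 to SPA5. The 2 sets of values lay far apart, 4.84-fold in their means (log2 difference -2.26 ± 0.034 SE, adjusted p = 1.97e-13). TWIST2, a factor of dermal and other mesenchyme, averaged 5.08 ± 0.647 FPKM in IMPA and 30.8 ± 1.14 FPKM in SPA, EMX2 2.94 ± 0.171 and 17.6 ± 1.04 FPKM, and DMRT2 0.233 ± 0.0238 and 4.77 ± 0.381 FPKM. EYA4, a transcriptional cofactor, was higher in IMPA (13.2 ± 1.17 against 0.0098 ± 0.0146 FPKM). MKX, a homeobox factor of tendon, averaged 2.55 ± 0.251 against 0.0488 ± 0.0173 FPKM.

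**Figure D2:**
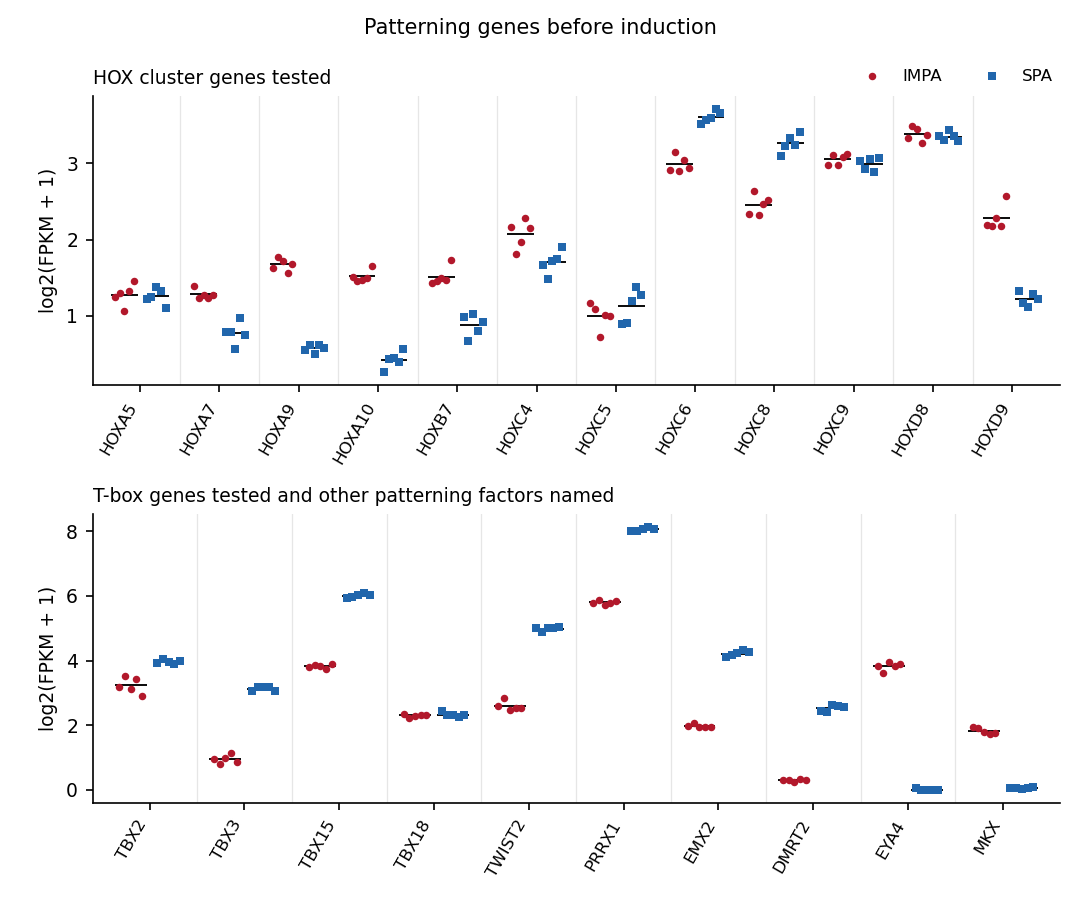
Levels of the HOX and T-box genes tested and of 6 further patterning factors as log2(FPKM + 1) on the vertical axis, 1 point per library, with the group mean as a line. The IMPA points lie above SPA for HOXA9, HOXA10 and HOXD9, and below SPA for HOXC6, HOXC8, TBX2, TBX3 and TBX15.

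Stromal progenitor genes were mostly lower in IMPA. Of 27 listed genes, 21 were tested, 4 higher and 14 lower in IMPA (1 and 12 by at least 2-fold), beside 41.7% and 31.1% of all features (8.22% and 5.65% by at least 2-fold), with a median log2 difference of -1.07. DCN, the collagen-binding proteoglycan decorin, lay at 656, 809, 587, 702 and 548 FPKM in IMPA1 to IMPA5 and at 5492, 5401, 5643, 5282 and 5386 FPKM in SPA1 to SPA5. All 5 IMPA libraries lay below all SPA libraries, and the mean was 8.24-fold lower (log2 difference -3.05 ± 0.088 SE, adjusted p = 4.12e-11; against SPA1 alone -3.07). PDGFRA, the receptor that marks mesenchymal progenitors, lay at 154, 162, 134, 161 and 131 FPKM in IMPA1 to IMPA5 and at 589, 581, 578, 554 and 559 FPKM in SPA1 to SPA5, 3.85-fold lower in IMPA (adjusted p = 9.2e-11). The factor EBF1, active in adipocyte precursors, was 5.35-fold lower (3.7 against 19.8 FPKM) and LY6E 12.1-fold lower (0.71 against 8.59 FPKM). LUM, THY1, NT5E and PDGFRB, general markers of cultured stromal cells, were lower in IMPA by between 2.11-fold and 3.57-fold. DPP4, a surface marker of early interstitial progenitors, went the other way, at 10.2 ± 0.824 FPKM in IMPA and 2.37 ± 0.102 FPKM in SPA, as did ANXA3 (129 ± 12.9 against 66.1 ± 3.15 FPKM), ENG (2.82 ± 0.747 against 1.95 ± 0.38 FPKM) and ZNF423 (1.28 ± 0.136 against 0.917 ± 0.139 FPKM). The call of ENG was lost without IMPA2, SPA3 or SPA5 (adjusted p of 0.0512 to 0.0559), and those of ENG and ZNF423 with quantile normalization (0.189 and 0.751). CD34, DLK1, PI16 and EBF2, which define preadipocytes or progenitors in other settings, averaged below 0.5 FPKM in both groups. The list summed to 8035, 9280, 7358, 8627 and 6843 FPKM in IMPA1 to IMPA5 and to 14010, 14591, 14759, 14582 and 14342 FPKM in SPA1 to SPA5.

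Of 35 listed adipogenic genes, 20 were tested, 6 higher and 12 lower in IMPA, beside 41.7% and 31.1% of all features (2 and 3 by at least 2-fold; median -0.20). PLIN2, the coat protein of small lipid droplets, lay at 51.8, 67.3, 41.2, 53.9 and 34.9 FPKM in IMPA1 to IMPA5 and at 256, 264, 259, 249.9 and 253 FPKM in SPA1 to SPA5, 5.15-fold lower in IMPA without overlap (adjusted p = 2.16e-08). CIDEC, a droplet fusion protein, fell from 4.65 ± 0.688 to 0.334 ± 0.113 FPKM, and CEBPD, an early adipogenic factor and the most abundant of the list, from 414 ± 12.7 to 229 ± 54 FPKM. ADIRF was 2.2-fold lower in IMPA. CIDEA, known from brown and beige fat, rose from 7.47 ± 3.49 FPKM in SPA to 27.8 ± 4.33 FPKM in IMPA, and the factors KLF5, CEBPA and KLF9 were 2.89-, 1.83- and 1.67-fold higher. The largest adjusted p among these 8 genes was 0.000199, for CEBPD. No feature bore the symbol FABP4, the fatty acid binding protein of adipocytes, but RefSeq gives LOC100861279 the synonym A-FABP. LOC100861279, chosen after its values were seen, lay at 65, 44.8, 73.8, 53.6 and 63.8 FPKM in IMPA1 to IMPA5 and at 0, 0.109, 0.354, 0 and 0 FPKM in SPA1 to SPA5 (log2 difference 5.80, adjusted p = 4.9e-12).

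Contractile genes of smooth muscle and pericytes were higher in IMPA, at 10 of 12 tested of 16 listed, with 1 lower, beside 41.7% and 31.1% of all features (7 and 1 by at least 2-fold; median 1.14). TAGLN, the most abundant, averaged 493 ± 41.5 FPKM in IMPA against 164 ± 6.63 FPKM in SPA, and ACTA2, the smooth muscle actin that also marks myofibroblasts and young muscle, 388 ± 46.9 against 88.8 ± 3.78 FPKM. MCAM (4.53 ± 0.468 against 0.0409 ± 0.0226 FPKM), LMOD1 (6.93 ± 1.11 against 1.08 ± 0.27 FPKM) and MYLK (16.3 ± 0.537 against 4.03 ± 0.286 FPKM) were higher as well, while the pericyte proteoglycan gene CSPG4 was lower (1.68 ± 0.148 against 4.46 ± 0.365 FPKM). The defining genes MYH11 and RGS5 averaged below 0.1 FPKM in both groups, and the list summed to between 889.9 and 1107 FPKM in IMPA and between 301.0 and 327.4 FPKM in SPA. Of 20 tendon and cartilage genes, 7 were tested, 4 higher (all 4 by at least 2-fold) and 2 lower, beside the same shares of all features (median 1.10). SOX9 averaged 3.38 ± 0.335 FPKM in IMPA against 0.477 ± 0.0828 FPKM in SPA, SPP1 41.1 ± 5.6 against 18.2 ± 1.67 FPKM, and FMOD, the most abundant member, 154 ± 9.65 against 71 ± 2.35 FPKM. SCX, TNMD, ACAN and COL2A1, which define tendon and cartilage cells, averaged below 0.3 FPKM in both groups, and the list summed to between 204.1 and 225.4 FPKM in IMPA and between 98.7 and 106.9 FPKM in SPA.

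Of 42 collagen genes, 23 were tested, 12 higher and 7 lower in IMPA, beside 41.7% and 31.1% of all features (5 and 2 by at least 2-fold; median 0.16). The basement membrane collagens COL4A1 (17.6 ± 1.26 FPKM in IMPA and 0.587 ± 0.114 in SPA) and COL4A2 (6.61 ± 0.572 and 0.576 ± 0.057 FPKM) were higher in IMPA, with log2 differences of 3.56 and 2.27. Their relatives COL4A3 (0.88 against 0.00579 FPKM) and COL4A4 (1.08 against 0.00137 FPKM) fell below the filter and were singled out after their values were seen. COL11A1, a minor fibrillar collagen, lay at 499, 446, 526, 445 and 554 FPKM in IMPA1 to IMPA5 and at 55.4, 55, 53.8, 51.4 and 50.7 FPKM in SPA1 to SPA5, 9.28-fold higher in IMPA without overlap (adjusted p = 1.52e-12; log2 difference against SPA1 alone 3.13). COL27A1 (1.8 ± 0.185 against 7.96 ± 0.63 FPKM) and COL8A1 (5.92 ± 0.497 against 18.7 ± 1.15 FPKM) were the collagens with the largest negative differences.

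Among 59 proteoglycans and matricellular proteins, 41 were tested, 20 higher and 17 lower in IMPA, beside 41.7% and 31.1% of all features (11 and 13 by at least 2-fold; median 0.12). DCN, ASPN, PRELP (0.236 ± 0.057 against 6.41 ± 1.11 FPKM) and FBLN1 (8.01 ± 0.83 against 51 ± 2.58 FPKM) had the largest negative differences. TNC, the adhesion-modulating tenascin C, had the largest positive one, at 36.1 ± 6.49 FPKM in IMPA and 0.953 ± 0.131 FPKM in SPA (log2 difference 4.23, adjusted p = 9.95e-12). FBN2, a fibrillin of embryonic tissue, averaged 17.7 ± 3.08 against 1.84 ± 0.166 FPKM, and the membrane proteoglycan SDC2 8.45 ± 1.61 against 1.04 ± 0.0791 FPKM. The proteoglycan list summed to between 4782 and 5119 FPKM in IMPA and between 10972 and 11414 FPKM in SPA, with DCN as its most abundant member in SPA.

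**Figure D3:**
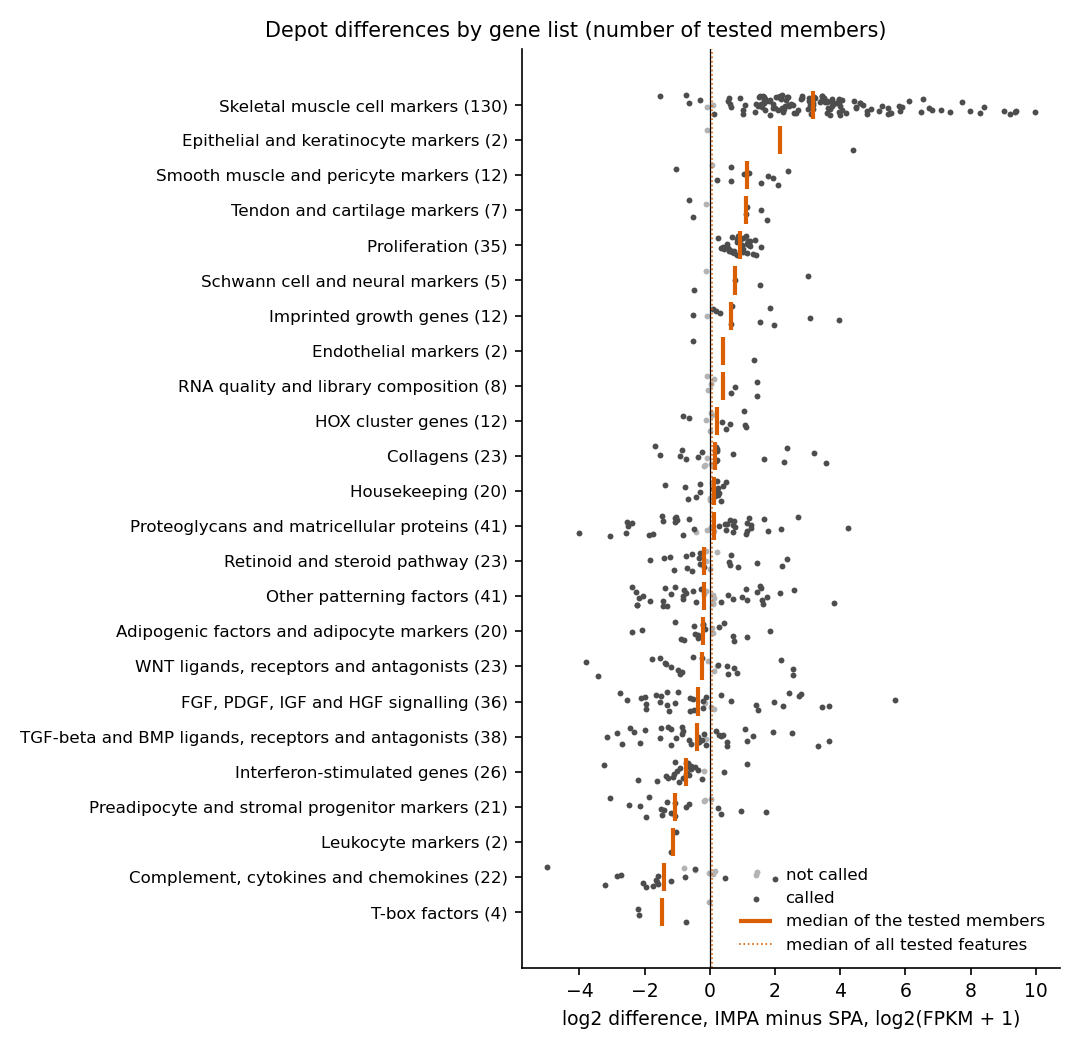
Log2 difference between the depots (IMPA minus SPA, horizontal axis) for each tested member of the 24 gene lists, ordered by their medians, with called members dark, others light, list medians as bars and the median of all tested features, 0.067, as a dotted line. Stromal, complement and T-box members lie mostly left of 0, and muscle, smooth muscle and proliferation members mostly right of it.

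Of 38 tested genes of TGF-beta and BMP signalling (57 listed), 13 were higher and 23 lower in IMPA, beside 41.7% and 31.1% of all features (7 and 13 by at least 2-fold; median -0.38). The ligands INHBA (12.5 ± 2.43 FPKM in IMPA and 0.0504 ± 0.04 FPKM in SPA) and TGFB2 (11.4 ± 2.07 and 0.22 ± 0.0412 FPKM) were higher in IMPA, and so was the BMP modulator BMPER (5.04 ± 1.13 and 0.0457 ± 0.0438 FPKM). The BMP antagonist GREM1 lay at 31.3, 28.1, 37.2, 29.1 and 45 FPKM in IMPA1 to IMPA5 and at 246, 252, 254, 245 and 250.5 FPKM in SPA1 to SPA5, 7.31-fold lower in IMPA (adjusted p = 4.05e-10). The receptors ACVRL1 (0.447 ± 0.118 against 11.7 ± 0.946 FPKM) and TGFBR3 (10.3 ± 3.22 against 69.3 ± 2.11 FPKM) and the inhibitory SMAD6 (7.03 ± 0.417 against 42.9 ± 1.3 FPKM) were lower in IMPA as well. CHRD, another antagonist of BMPs, was higher (4.03 ± 0.639 against 0.302 ± 0.087 FPKM).

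For WNT signalling, 23 of 58 listed genes were tested, 8 higher and 12 lower in IMPA, beside 41.7% and 31.1% of all features (3 and 7 by at least 2-fold; median -0.24). The ligand WNT2 averaged 0.426 ± 0.112 FPKM in IMPA and 14.3 ± 0.935 FPKM in SPA, and the WNT enhancers RSPO1 (0.73 ± 0.179 against 4.82 ± 0.19 FPKM) and RSPO3 (0.561 ± 0.125 against 3.5 ± 0.234 FPKM) were lower in IMPA too. SFRP4, a secreted inhibitor and the most abundant of the list in SPA, fell from 112 ± 3.65 to 42.6 ± 2.16 FPKM. WNT5A, a ligand of the noncanonical branch, was higher in IMPA (7.31 ± 3.33 against 0.315 ± 0.0409 FPKM), as were the WNT receptor FZD9 (5.77 ± 0.588 against 0.15 ± 0.075 FPKM) and the DKK receptor KREMEN1 (12.3 ± 1.32 against 1.89 ± 0.184 FPKM).

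Of 36 tested genes of FGF, PDGF, IGF and HGF signalling (50 listed), 12 were higher and 21 lower in IMPA, beside 41.7% and 31.1% of all features (10 and 13 by at least 2-fold; median -0.35). The insulin-like growth factor binders moved in both directions. IGFBP3 averaged 4.75 ± 0.302 FPKM in IMPA and 32.5 ± 1.69 FPKM in SPA, IGFBP5 70.2 ± 3.65 and 307 ± 42.3 FPKM, and IGFBP6, the most abundant of the list in SPA, 1686 ± 87.9 and 2547 ± 76.3 FPKM, all lower in IMPA beside the higher IGFBP2. The ligand PDGFA was higher in IMPA (18 ± 2.14 against 0.487 ± 0.121 FPKM) while its receptor PDGFRA was lower. FGFR4, an FGF receptor of myoblasts, averaged 10.4 ± 0.862 against 0.0345 ± 0.0329 FPKM, and ANGPT1 18.2 ± 5.07 against 1.68 ± 0.14 FPKM. HGF fell from 8.56 ± 0.576 FPKM in SPA to 1.4 ± 0.245 FPKM in IMPA and ANGPTL1 from 41 ± 1.13 to 5.29 ± 0.545 FPKM. FGF5, below the filter and chosen after its values were seen, averaged 0.905 FPKM in IMPA and was listed at 0 in all 5 SPA libraries.

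For the retinoid and steroid pathway, 23 of 36 genes were tested, 7 higher and 12 lower in IMPA, beside 41.7% and 31.1% of all features (3 and 4 by at least 2-fold; median -0.16). The retinoid handling genes DHRS3 (34.1 ± 9.35 against 5.61 ± 0.477 FPKM), CRABP2 (25.6 ± 1.99 against 4.7 ± 0.799 FPKM) and ALDH1A1 (4.97 ± 0.665 against 1.16 ± 0.225 FPKM) were higher in IMPA. The receptor RARB (6.42 ± 0.515 against 15 ± 0.972 FPKM), the adipokine gene RARRES2 (20.8 ± 3.52 against 76.6 ± 3.98 FPKM), the glucocorticoid receptor NR3C1 (28 ± 4.48 against 75.2 ± 2.46 FPKM) and HSD11B1, which makes active glucocorticoid (1.94 ± 0.903 against 5.61 ± 0.386 FPKM), were lower.

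Innate immune genes were lower in IMPA for the most part. Of 55 complement, cytokine and chemokine genes, 22 were tested, 2 higher and 14 lower, beside 41.7% and 31.1% of all features (1 and 12 by at least 2-fold; median -1.39). C3, the central complement protein and the most abundant of the list, lay at 193, 283, 134, 257 and 95.8 FPKM in IMPA1 to IMPA5 and at 459, 564, 554, 571 and 541 FPKM in SPA1 to SPA5. The ranges did not overlap, with SPA1 the lowest of its group (log2 difference -1.58 ± 0.25 SE, adjusted p = 0.00014). C2 averaged 1.4 ± 0.574 FPKM in IMPA and 20.9 ± 0.774 FPKM in SPA, and the stromal chemokine CXCL12 16.7 ± 7.26 and 108 ± 6.7 FPKM. CXCL8, a chemokine for neutrophils, lay at 72.7, 85.8, 30.4, 80.1 and 2.68 FPKM in IMPA1 to IMPA5 and at 287, 266, 254, 240.1 and 245 FPKM in SPA1 to SPA5, lower in IMPA (adjusted p = 0.00436) and lowest in IMPA5. IL6 went the other way, at 88.6, 76.6, 38.1, 81.7 and 11.6 FPKM in IMPA1 to IMPA5 and 12.4, 9.75, 11.8, 10.2 and 12.3 FPKM in SPA1 to SPA5 (adjusted p = 0.00199), and there too IMPA5 was the lowest IMPA library, within the range of SPA. The whole list summed to 1039, 1031, 658, 1055 and 332 FPKM in IMPA1 to IMPA5 and to 1784, 1908, 1899, 1876 and 1852 FPKM in SPA1 to SPA5, so IMPA5 had the least of all 10 libraries. Without IMPA5, 4 members of the list were called higher in place of 2, and without IMPA1, IMPA2, IMPA4, SPA1, SPA2, SPA3 or SPA5, 1 was, as was the case with median-of-ratios, upper-quartile and quantile scaling, single transcripts and no filter.

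Of 40 interferon-stimulated genes, 26 were tested, 2 higher and 23 lower in IMPA, beside 41.7% and 31.1% of all features (1 and 8 by at least 2-fold; median -0.73). EPSTI1 averaged 0.838 ± 0.335 FPKM in IMPA and 16.3 ± 1.89 FPKM in SPA, IFIT3 4.2 ± 0.502 and 22.8 ± 1.67 FPKM, and IFI6, the most abundant, 78.7 ± 14.1 and 137 ± 5.32 FPKM. CMPK2 was higher in IMPA (4 ± 1 against 1.26 ± 0.278 FPKM).

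Cell cycle genes were higher in IMPA without exception among the tested members of the proliferation list. All 35 listed genes passed the filter and were called higher, 16 by at least 2-fold, where 41.7% of all features were higher and 8.22% by at least 2-fold, with a median log2 difference of 0.91. RRM2, the small subunit of the enzyme that makes deoxyribonucleotides, lay at 32.2, 35.8, 33.6, 31.5 and 35.5 FPKM in IMPA1 to IMPA5 and at 11.1, 10.9, 10.5, 10.2 and 10.9 FPKM in SPA1 to SPA5, 3.16-fold higher in IMPA without overlap (log2 difference 1.57 ± 0.043 SE, adjusted p = 2.44e-11; against SPA1 alone 1.52). TOP2A (31 ± 3.59 against 10.9 ± 0.922 FPKM), CENPF (12.8 ± 1.4 against 4.21 ± 0.313 FPKM) and CCNB1 (22.6 ± 2.45 against 8.43 ± 1.11 FPKM), genes of mitosis, followed. With quantile normalization, 34 of the 35 were called higher.

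Growth-regulating imprinted genes leaned the same way, with 10 of 12 tested (22 listed) higher and 1 lower in IMPA, beside 41.7% and 31.1% of all features (5 by at least 2-fold; median 0.66). CDKN1C, a cell cycle inhibitor and the most abundant of them, lay at 294, 334, 355, 333 and 382 FPKM in IMPA1 to IMPA5 and at 36.9, 37.1, 39.5, 40.9 and 41.7 FPKM in SPA1 to SPA5, 8.66-fold higher in IMPA without overlap (adjusted p = 2.95e-12). MEST averaged 36 ± 4.78 against 1.33 ± 0.0824 FPKM and IGF2, the fetal growth factor, 7.86 ± 0.839 against 1.24 ± 0.32 FPKM. DIO3, which inactivates thyroid hormone, averaged 2.65 ± 0.34 FPKM in IMPA and was listed at 0 in all SPA libraries. The member that was lower was PLAGL1 (9.51 ± 0.611 against 14.1 ± 0.182 FPKM), and a further member, 2 in all, was called lower without SPA1 and with median-of-ratios, upper-quartile and quantile scaling.

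The lists meant as references held called genes as well. Of 20 housekeeping genes, 11 were higher and 6 lower in IMPA, 1 of them by at least 2-fold, beside 41.7% and 31.1% of all features, with a median of 0.13. PGK1, a glycolytic enzyme, fell from 598 ± 15.6 to 231 ± 13.1 FPKM and GAPDH from 1639 ± 34.5 to 1037 ± 79.1 FPKM, while RPS18, the most abundant, rose from 1925 ± 58.2 to 2346 ± 44.3 FPKM. Of 17 genes read as signs of RNA quality or handling, 8 were tested and 4 were higher in IMPA, beside 41.7% of all features (2 by at least 2-fold; median 0.40). These were the immediate early genes JUN (60.3 ± 4.14 against 21.3 ± 1.44 FPKM), ATF3 (7.23 ± 0.537 against 2.02 ± 0.311 FPKM) and FOS (4.44 ± 0.465 against 2.46 ± 0.155 FPKM) and the chaperone HSPA8 (648 ± 47.5 against 381 ± 28.3 FPKM). Their part in the other differences was not tested.

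The lncRNAs were counted by class, and the difference between classes was not tested. Of 467 annotated lncRNAs, 123 were higher (26.3%) and 143 lower (30.6%) in IMPA, 22 (4.71%) and 24 (5.14%) of them by at least 2-fold. Of 1199 new ones, 555 were higher (46.3%) and 172 lower (14.3%), 95 (7.92%) and 51 (4.25%) by at least 2-fold. Of all features tested, 41.7% were higher and 31.1% lower, 8.22% and 5.65% by at least 2-fold. Most of the new lncRNAs lay within introns, 1049 of the 1199, of which 487 were higher and 142 lower. Intronic lncRNAs took 1.37% to 1.43% of the summed FPKM in IMPA and 1.0% to 1.3% in SPA, without overlap (exact permutation p = 0.00794). The new lncRNAs LNC_010768 (38.6 ± 1.57 against 0.0787 ± 0.157 FPKM), LNC_011106 (22.8 ± 2.8 against 0.0147 ± 0.0202 FPKM) and LNC_007232 (14.8 ± 1.71 against 0.0111 ± 0.0176 FPKM) had the largest positive differences. LNC_002281 averaged 5.55 ± 1.36 FPKM in IMPA and 36 ± 8.06 FPKM in SPA, LNC_001452 1.3 ± 0.308 and 11.9 ± 3.26 FPKM, and LNC_005603 1.08 ± 0.428 and 8.86 ± 2.13 FPKM, the largest negative ones. Of the annotated lncRNAs, XR_001297454.1 had the largest positive difference in log2(FPKM + 1) (28.4 ± 1.39 against 0.151 ± 0.173 FPKM). XR_001295810.1 (0.414 ± 0.119 against 13.2 ± 1.45 FPKM), XR_001918151.1 (0.355 ± 0.164 against 8.73 ± 1.17 FPKM) and XR_001296756.2 (0.414 ± 0.282 against 5.98 ± 0.548 FPKM) had the largest negative ones.

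The next largest pair of annotated lncRNAs were both transcripts of 1 X-linked locus, LOC102169084, and they were nearly confined to the intramuscular libraries. XR_001917557.1 lay at 23.1, 24.9, 23.6, 22.4 and 24.9 FPKM in IMPA1 to IMPA5 and at 0.0662, 0, 0, 0 and 0 FPKM in SPA1 to SPA5, and XR_311252.3 at 20.7, 23.5, 15.4, 37 and 15.5 and 0, 0, 0.00419, 0 and 0 FPKM. Both were far higher in each IMPA library (log2 differences 4.61 and 4.48, adjusted p = 8.38e-15 and 1.37e-09). RefSeq (assembly ARS1.2, a later version than the one the reads were mapped to) places the locus on the X chromosome, with MIR421, MIR374B, MIR545, MIR374A and ZCCHC13 on one side and CHIC1 on the other. In other mammals the XIST gene, whose RNA coats the inactive X chromosome of females, lies in this interval, but neither the files nor RefSeq name the goat locus so.

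A mirror image was seen in genes that RefSeq assigns to no chromosome. The features listed at 0 in all 5 IMPA libraries and above 1 FPKM in all 5 SPA libraries numbered 7, and all 7 are without a chromosome in RefSeq, beside 373 of the 11835 mRNA genes and annotated lncRNAs tested; they are LOC108634721, LOC108635143, LOC108634720, LOC108634620, LOC108634619, LOC108634621 and the lncRNA XR_001917649.1, singled out after their values were seen. The most abundant, LOC108634721, lay at 49.8, 47.1, 49.2, 45.3 and 50.3 FPKM in SPA1 to SPA5, and the least, XR_001917649.1, at 2.61, 2.41, 2.53, 2.4 and 2.72 FPKM. LOC108634550, also unplaced, was near 0 in IMPA (0.000851 FPKM) and averaged 20.2 ± 0.685 FPKM in SPA. In the opposite direction, 23 features were listed at 0 in all 5 SPA libraries and above 1 FPKM in all 5 IMPA libraries, 1 of them a gene without a chromosome and 14 with a RefSeq symbol, among them MYOD1, DIO3 and LOC108633440 (36.1 ± 4.25 FPKM in IMPA), the last chosen after its values were seen. The sex-determining gene SRY was listed at 0 in all 20 libraries. A value of 0 in RNA does not tell whether the cells carry the gene, and the sex of the donors was not tested.

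Genes on the X chromosome that have a Y-linked relative in mammals, also chosen after values were seen, were mostly higher in IMPA, at 8 of 12, with 1 lower and 3 not called (median log2 difference 0.30), beside 41.7% higher and 31.1% lower of all features tested. With median-of-ratios, upper-quartile and quantile scaling, 2 were lower. EIF2S3, a subunit of a translation initiation factor, lay at 74, 74.9, 72.5, 67.9 and 70.2 FPKM in IMPA1 to IMPA5 and at 34.9, 39.3, 39.8, 40.1 and 42.5 FPKM in SPA1 to SPA5, and ZFX, a zinc finger factor, at 22.1, 20.1, 21.5, 23 and 22.4 and 10.5, 10.4, 11, 10.3 and 10.6 FPKM. Neither gene overlapped between the groups (log2 differences 0.86 and 0.98). KDM6A and USP9X were 1.72- and 1.59-fold higher, and ZRSR2, DDX3X, EIF1AX and RPS4X were higher by between 1.17-fold and 1.78-fold, whereas UBA1 was 1.36-fold lower and KDM5C, TXLNG and OFD1 were not called. The methods describe the donors as male. They say that muscle and subcutaneous fat were both taken from the goats, with 5 biological replicates per group. Which goat gave which culture is not stated there. Whether donors differed between the groups was not tested, and donor and depot cannot be told apart where replicate numbers are not tied to a goat.

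**Figure D4:**
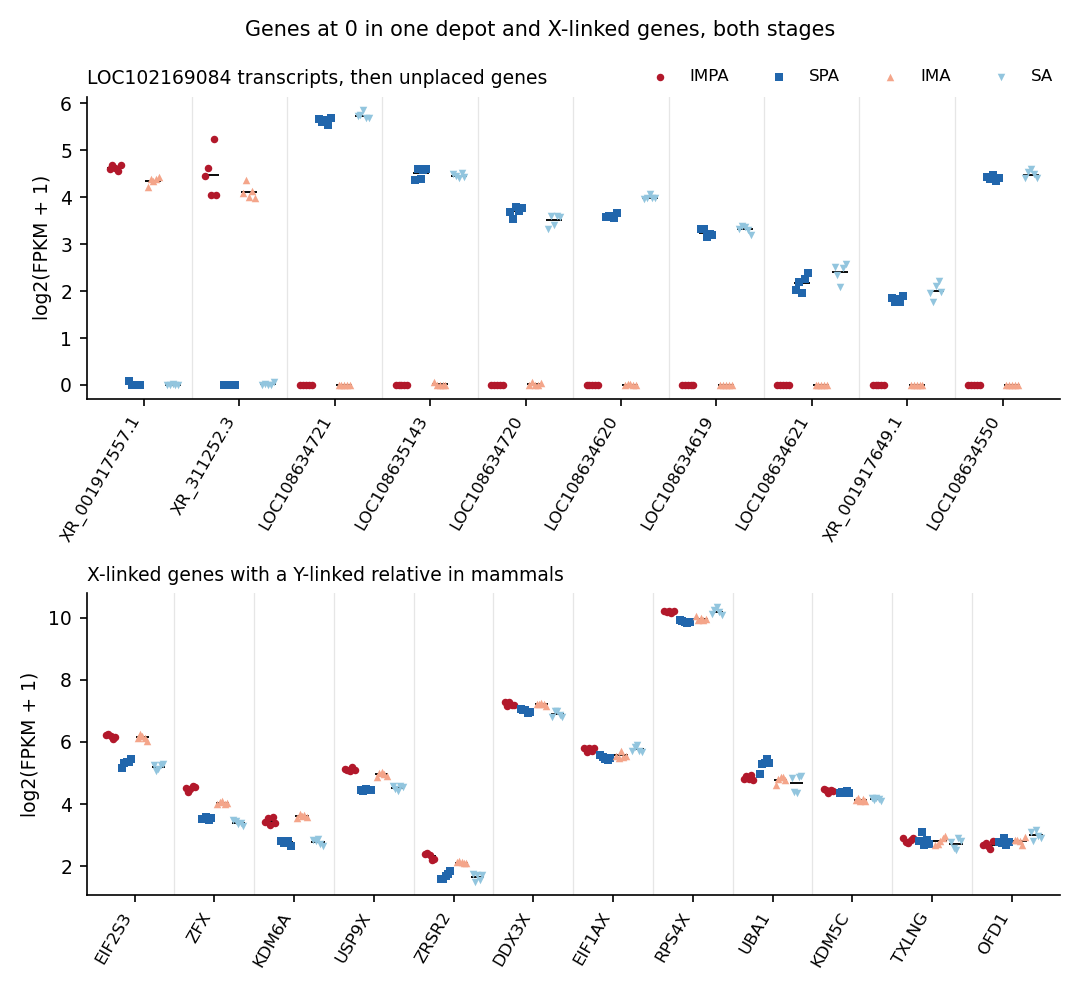
Levels of the LOC102169084 transcripts, of 8 unplaced genes and of 12 X-linked genes as log2(FPKM + 1) on the vertical axis in all 4 groups of 5 libraries, 1 point per library, with group means as lines. The upper panel shows the 2 lncRNA transcripts in IMPA and IMA and the unplaced genes in SPA and SA, with the other depot at or near 0.

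The libraries taken after induction, which the comparison above did not use, showed which depot differences were also called at the later stage. Per the study's read statistics, the mapped share was again higher in each IMA library than in any SA library. It was lower in each IMA library than in any IMPA library, and SA1 to SA4 lost more reads in filtering than the IMA libraries. The part of mapped share and filtering in the later differences was not tested. In IMA against SA, 8925 of the 13034 features (68.5%) were called, 3457 higher (26.5%) and 5468 lower (42.0%) in the intramuscular cells, with a median log2 difference of -0.099. Of the 1072 features at least 2-fold higher in IMPA, 918 were called in the same direction in IMA against SA, 93 in the opposite direction and 61 not at all. Of the 737 at least 2-fold lower, 683 were called in the same direction, 19 in the opposite one and 35 not at all. Over all called features, 2788 of the 5435 higher in IMPA were called in the same direction, 1072 in the opposite one and 1575 not at all, against 3052, 183 and 824 of the 4059 lower. Of the 1199 new lncRNAs, 140 were higher and 426 lower in IMA against SA, where 555 and 172 had been before induction. TBX15 averaged 15.9 ± 1.03 FPKM in IMA and 44.5 ± 1.27 FPKM in SA, DCN 535 ± 51.4 and 4120 ± 193 FPKM, and IGFBP2 1200 ± 101 and 40.3 ± 2.85 FPKM, each in the direction seen before induction. HOXA10 averaged 2.01 ± 0.26 FPKM in IMA and 0.354 ± 0.0644 FPKM in SA, and LOC108634721 stayed listed at 0 in IMA beside 52.4 ± 2.54 FPKM in SA. The 7 features listed at 0 in IMPA all stayed below 0.1 FPKM in each IMA library, and their lowest value in an SA library was 2.40 FPKM. Of the 23 features listed at 0 in SPA, 19 stayed below 0.1 FPKM in each SA library, and their lowest value in an IMA library was 0.

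Proliferation genes turned around between the stages, while the skeletal muscle list summed to a mean of 11035 FPKM in IMPA and of 33245 FPKM in IMA (5.57% to 6.38% of each library's FPKM), beside 470 FPKM in SPA and 380.3 FPKM in SA. The part of muscle cells in the change was not tested. In IMA against SA, 32 of the 35 proliferation genes were called lower, beside 42% of all features, and 3 were not called. The median log2 difference of the 35 was -0.95, and the depot-by-stage difference passed the test for the same 32 genes. Of all 13034 features tested, 1255 were called in opposite directions before and after induction. RRM2 averaged 21.8 ± 3.73 FPKM in IMA and 80.4 ± 5.07 FPKM in SA, so that its log2 difference went from 1.57 before to -1.85 after induction (test of the change, added after the data were seen, adjusted p = 5.98e-15). TOP2A went from 1.42 to -0.82 and CCNB1 from 1.33 to -0.49. ADIRF also changed sides, from lower in IMPA (-1.06) to higher in IMA (2.55, adjusted p of the change = 1.92e-14).

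**Figure D5:**
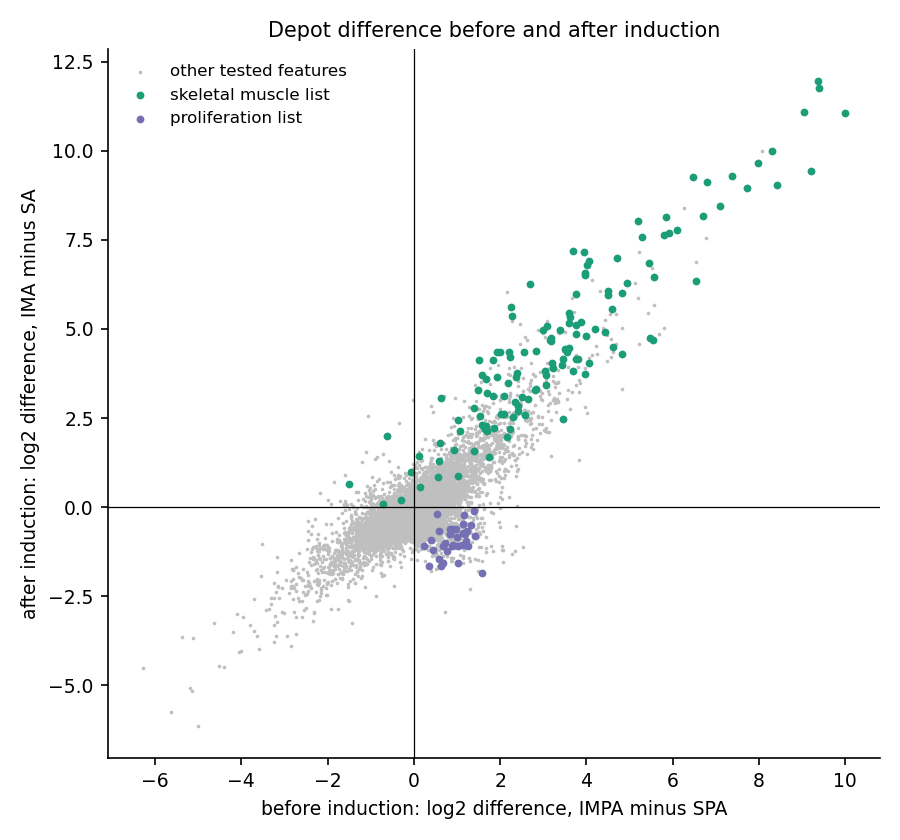
Log2 difference between the depots before induction (IMPA minus SPA, horizontal axis) and after induction (IMA minus SA, vertical axis) for the 13034 tested features, 1 point each, with skeletal muscle and proliferation lists coloured. Muscle genes lie mostly above 0 on both axes, and the 35 proliferation genes lie right of 0 and below 0 after induction.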

How the data were processed

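Per the methods and labels, the authors mapped the reads with HISAT2 2.0.4, assembled transcripts with Scripture and Cufflinks and computed FPKM with StringTie 1.3.1. The deposited values are in FPKM for mRNA transcripts, annotated lncRNAs and new lncRNAs. The read totals listed by the study were not used to weigh the values. The mRNA transcripts were summed by symbol, and features averaging under 1 FPKM across IMPA1 to IMPA5 and SPA1 to SPA5 were dropped. log2(FPKM + 1) was tested in limma 3.58.1 (R 4.3.3) with a variance trend, two-sided, with Benjamini-Hochberg adjustment over the mRNA and lncRNA features together. IMA and SA were fitted the same way on the same features. Named genes were the 10 largest differences in each direction outside the muscle list among genes with a proper symbol (no LOC number or accession), up to 4 members of each direction and the most abundant from each of 24 lists, the HOX and T-box genes tested, and 3 lncRNAs in each direction and class; most abundant means the highest mean over both groups. Library measures were compared by exact permutation. Alternatives covered filter, pseudocount, scaling, model, pairing, transcripts and single libraries; the within-batch values and the stage term were added after seeing the data. Some listed genes are not reported. The members and lists were chosen with earlier results of these data known. RefSeq (ARS1.2) served for names and neighbours, and no coordinates are given.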

Additional observations from a re-analysis of the deposited data

Results flagged for a closer look

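In 38 of the 440 groups of 5 libraries examined (215 named features and 5 library measures in each depot), 1 library stood apart from the other 4. The gap asked for is one that chance gives in about 1 of 20 groups of values well above 0. Where 4 libraries are at 0, any value above 0 in the remaining library stands apart, and that rate does not hold. Such groups included MYOG, NMRK2, KDR and XR_001917557.1 in SPA1, TNMD in SPA2, XR_311252.3 in SPA3, EPCAM in SPA4 and LOC108634550 in IMPA4. The 38 are therefore not to be set against a rate of 1 in 20. SPA1 stood apart most often. Among muscle genes and genes high in IMPA, SPA1 was above the other 4 SPA libraries with 7.97 FPKM for MYL2, 6.42 for MYLPF, 3.37 for ACTC1, 0.62 for MYOG, 0.52 for HSPB8, 0.068 for NMRK2, 0.044 for PAX7, 0.035 for EYA4, 0.36 for LNC_010768, 0.057 for CDH1 and 0.066 for XR_001917557.1. SPA1 was also the highest of its group for MMP1 (114.9 FPKM), LUM (720.5), GAPDH (1698), HGF (9.57), TBX18 (4.39) and KDR (0.022), and the lowest for C1QTNF1 (69.6), C3 (458.8) and RGS5 (0). It is the subcutaneous library that shared the read-filter batch of IMPA; the part of that batch in these values was not tested.

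IMPA5 was the highest of its group for HOXA10 (2.15 FPKM), HOXB7 (2.31), HOXD9 (4.92) and RARB (7.33). Single libraries stood apart for HOXA7 in IMPA1 (1.62 FPKM), XR_001918151.1 in IMPA2 (0.64), LNC_010768 in IMPA3 (41.4), RSPO3 in IMPA4 (0.34) and LOC108634550 in IMPA4 (0.0043). The same held in SPA for TWIST2 in SPA2 (28.7 FPKM), TNMD in SPA2 (0.042), IGF2 in SPA3 (1.80), COL4A4 in SPA3 (0.0055), XR_311252.3 in SPA3 (0.0042), ENG in SPA4 (2.61), EPCAM in SPA4 (0.017), WIF1 in SPA4 (50.2) and TAGLN in SPA5 (152.9).

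For 8 named genes, the depot difference was called in opposite directions before and after induction, and the change itself passed the test in 1 fit of the 20 libraries. The log2 difference before induction minus that after was 3.42 for RRM2, 2.24 for TOP2A, 1.82 for CCNB1, 0.54 for RPS4X, 0.47 for EIF1AX, 0.45 for RPS18, -0.80 for S100B and -3.61 for ADIRF. Their causes were not tested.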

How the results depend on the processing

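The number of called features stayed within 1.5 times 9494 with the other filters, pseudocount, scalings, models and units tried except the Ballgown covariate, which gave 362 called, 226 higher and 136 lower in IMPA, 221 and 131 of them by at least 2-fold; the covariate did not overlap between the groups. With no filter on low values, 32875 features were tested and 8408 were called higher. Leaving out single libraries gave 9149 to 9375 called, 1056 to 1094 at least 2-fold higher and 713 to 764 at least 2-fold lower. With the replicate number as a block, 9343 were called; the correlations between libraries of the same number ran from -0.16 to 0.074, so the number was not taken as a pairing. The list medians kept their sign under the 4 scalings tried. Some moved by more than 1.5 times with quantile normalization, among them collagens (0.16 to 0.053) and HOX genes (0.21 to 0.10). Proteoglycans (0.12 to 0.056) and other patterning factors (-0.18 to -0.34) did so too. The collagens, 12 higher and 7 lower as tested, were 8 and 8 with quantile normalization. Of the 48 list counts, 42 changed by more than 1.5 times with the Ballgown covariate. Such changes numbered 4 each with median-of-ratios, upper-quartile and quantile scaling, 2 with single transcripts and 1 each with no filter and no variance trend. With the scalings, the share of calls that were higher was 57.2% as tested, 56.4% after rescaling, 53.0% with upper-quartile, 51.1% with median-of-ratios and 46.4% with quantile scaling.

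Of the named features, the log2 difference changed sign for genes near 0 or with the covariate. With the Ballgown covariate it was 0.0020 for ADIRF, -0.95 for COL3A1, -0.89 for ENG, -0.0085 for FOS, -0.51 for HOXA5, -0.24 for HOXA7, -0.34 for KDM5C, 0.12 for OFD1 and 0.11 for TBX18. With median-of-ratios scaling it was -0.037 for COL3A1, -0.016 for HOXA5, -0.022 for HOXD8 and -0.019 for KDM5C; with upper-quartile scaling -0.019, -0.0045, -0.0056 and -0.0017 for the same genes. With quantile normalization it was -0.16 for HOXA5, -0.013 for HOXC9, -0.030 for HOXD8 and -0.010 for KDM5C, and with single transcripts 0.029 for OFD1. Leaving out 1 library moved COL3A1 over -0.058 to 0.12, HOXA5 over -0.023 to 0.075, TBX18 over -0.037 to 0.0047 and TXLNG over -0.038 to 0.066. Apart from the covariate and single libraries, calls were lost for ENG with no filter (log2 difference 0.36, adjusted p = 0.0535), single transcripts (0.36, 0.0546) and quantile normalization (0.19, 0.189), for HOXC4 with single transcripts (0.32, 0.491) and quantile normalization (0.21, 0.0831), for ZNF423 with quantile normalization (0.028, 0.751) and for UBA1 with single transcripts (-1.49, 0.162). Calls were gained with quantile normalization for COL1A2 (0.0191), COL3A1 (0.00149), HOXC5 (0.0153), TBX18 (0.0150) and OFD1 (0.0152), and for COL1A2 also with the block (0.0484). With median-of-ratios and upper-quartile scaling, COL1A2 (0.0191 and 0.0344) and OFD1 (0.0252 and 0.0410) were gained. The cause of these changes was not tested. The difference in FPKM sum ranged from 13630 to 21642 when 1 library was left out, features above 0 from 2050 to 2403, the share of the most abundant feature from -0.59 to 0.21 percentage points, of intronic lncRNAs from 0.22 to 0.29 and of muscle genes from 1.82 to 1.88. The read totals of the study entered none of these tests, and what depth limits was not tested.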
